A study of Mus musculus with 4 samples.

Results

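The genes described here are the 2 inducible metallothioneins, Mt1 and Mt2, and 8 genes that store, move or sense iron: Fth1, Ftl1, Tfrc, Slc40a1, Slc11a2, Slc39a14, Aco1 and Ireb2. They were chosen by name and function, and all 10 were found among the 31828 genes of the expression table. All 10 passed the filter of a mean of at least 1 TPM (a transcript level scaled for gene length within each library), so 10 of the 14116 genes tested are described in full.

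The RNA came from AML12, an immortalised hepatocyte line from a mouse that carried a human TGFα transgene. The cells were grown either as a layer in dishes (2D-cultured cells) or embedded in Matrigel, a basement membrane gel in which they form spheroids (3D-cultured cells), with 2 RNA-seq libraries for each culture. The medium of both cultures held 10% fetal calf serum, an insulin, transferrin and selenium supplement with 5.5 µg/mL of human transferrin, and 40 ng/mL of dexamethasone, a glucocorticoid. Both cultures were first kept in dishes for 48 h and were arrested with 1 mM hydroxyurea, which blocks DNA replication. The 2D-cultured cells received it for 24 h from 50% confluence, and the 3D-cultured cells for 36 h after 24 h in Matrigel, so culture and treatment time cannot be told apart. Hydroxyurea acts on an iron-dependent enzyme, ribonucleotide reductase. The arrest is described for the cells of both cultures, so every library is taken to carry it, though the library titles do not name it. No library labelled as untreated was analysed here. The labels do not say whether the 2 libraries of a culture came from separate cultures, so the p-values measure only the spread between these libraries. TPM keeps no depth, so the depth behind each value is unknown.

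Iron inside a cell is held in ferritin, a hollow shell built from heavy chains (Fth1), which oxidise iron, and light chains (Ftl1), which help to mineralise it. Transferrin-bound iron enters through the transferrin receptor (Tfrc), leaves the endosome through the transporter DMT1 (Slc11a2), and can also enter hepatocytes unbound to transferrin through ZIP14 (Slc39a14). Ferroportin (Slc40a1) is the known cellular iron exporter. The iron regulatory proteins IRP1 (Aco1, which is a cytosolic aconitase when it carries an iron-sulfur cluster) and IRP2 (Ireb2) bind a hairpin called the iron-responsive element. Bound in front of a coding sequence they hold back translation, and bound behind one they protect the mRNA from decay. Metallothioneins are small cysteine-rich proteins that bind zinc, copper and cadmium. Their genes are switched on by the zinc-sensing factor MTF1 at metal response elements, and glucocorticoids also raise them.

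Matches to the iron-responsive element are shown because the regulatory proteins are known to bind hairpins of this kind. Transcripts of the members were searched on the sense strand for the letters CNNNNNCAGTGN, that is a bulged C and, after 5 bases of stem, a 6-base loop. The letters with any stem are common, being present in 67.1% of 21901 protein-coding genes. With a stem in which all 5 pairs are A-T, G-C or G-T they were present in 294 genes (1.34%). Of the members' matches, those with at least 4 of 5 pairs in a UTR are printed below. The share of all genes with such a site was not counted, so the 1.34% does not apply to sites with 4 pairs. Each 30-base window of GRCm38 is written 5′ to 3′ on the gene's strand, and capitals mark the bulged C and the loop.

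Fth1, 5′ UTR in exon 1, chr19:9982732-9982761, plus strand: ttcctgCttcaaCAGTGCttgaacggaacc
Ftl1, 5′ UTR in exon 1, chr7:45459778-45459807, minus strand: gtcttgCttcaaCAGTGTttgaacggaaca
Slc40a1, 5′ UTR in exon 1, chr1:45925464-45925493, minus strand: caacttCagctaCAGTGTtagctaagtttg
Slc11a2, 3′ UTR in exon 16, chr15:100395152-100395181, minus strand: agccatCagagcCAGTGTgtttctatggtt
Tfrc, 3′ UTR in exon 19, chr16:32631219-32631248, plus strand: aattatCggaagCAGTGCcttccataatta
Tfrc, 3′ UTR in exon 19, chr16:32631598-32631627, plus strand: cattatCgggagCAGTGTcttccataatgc
Tfrc, 3′ UTR in exon 19, chr16:32631663-32631692, plus strand: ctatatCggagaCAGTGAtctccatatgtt
Tfrc, 3′ UTR in exon 19, chr16:32631710-32631739, plus strand: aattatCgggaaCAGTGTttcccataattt

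The Fth1 and Ftl1 elements share the stem and loop letters ttcaaCAGTG, and all sites but the one in Slc11a2 have 5 of 5 pairs. The Slc11a2 site has 4 of 5 pairs and lies in 1 annotated transcript, whose last exon is exon 16, and not in the form that ends in exon 17. Gene-level TPM does not separate those forms. A match describes letters and is not a measurement of binding.

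**Figure D1:**
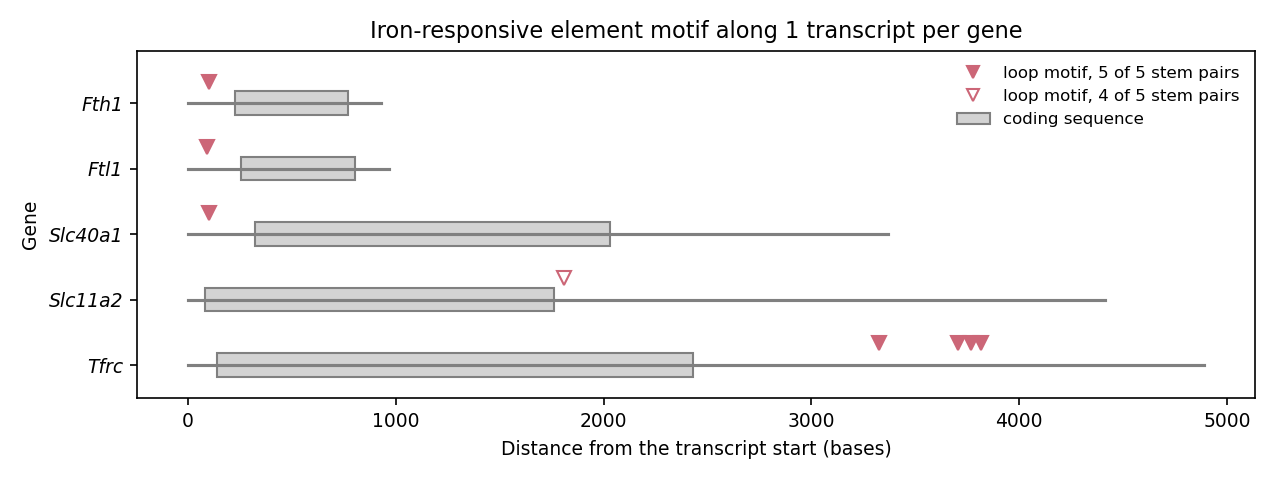
Position of the iron-responsive element motif along 1 transcript of each of 5 genes, in bases from the transcript start, with the coding sequence as a grey box. Filled triangles are sites with 5 of 5 stem pairs and the open triangle is the site with 4 of 5. The ferritin and ferroportin sites lie ahead of the coding sequence, and the Tfrc and Slc11a2 sites lie behind it.

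Of the 10 genes, 6 rose in 3D-cultured cells, 1 fell and 3 did not pass the test. Changes were tested with limma on log2(TPM + 1) over all 14116 genes, and a gene was called when its Benjamini-Hochberg adjusted p was under 0.05. Across all genes tested 50.5% were called, 23.4% higher and 27.1% lower in 3D-cultured cells, so 7 called of 10 is read against a background of about 1 gene in 2. The median log2 fold change was 0.28 over the 10 genes and -0.036 over all genes tested. The libraries of the 2 cultures did not overlap for 9 of the 10 genes, beside 77.5% of all genes tested. A single member, Fth1, was called with an absolute log2 fold change over 1, as were 8.2% of all genes, and 0 of the 10 had an absolute log2 fold change over 2. In bulk RNA, fewer cells that express a gene and less RNA per cell cannot be told apart.

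**Figure D2:**
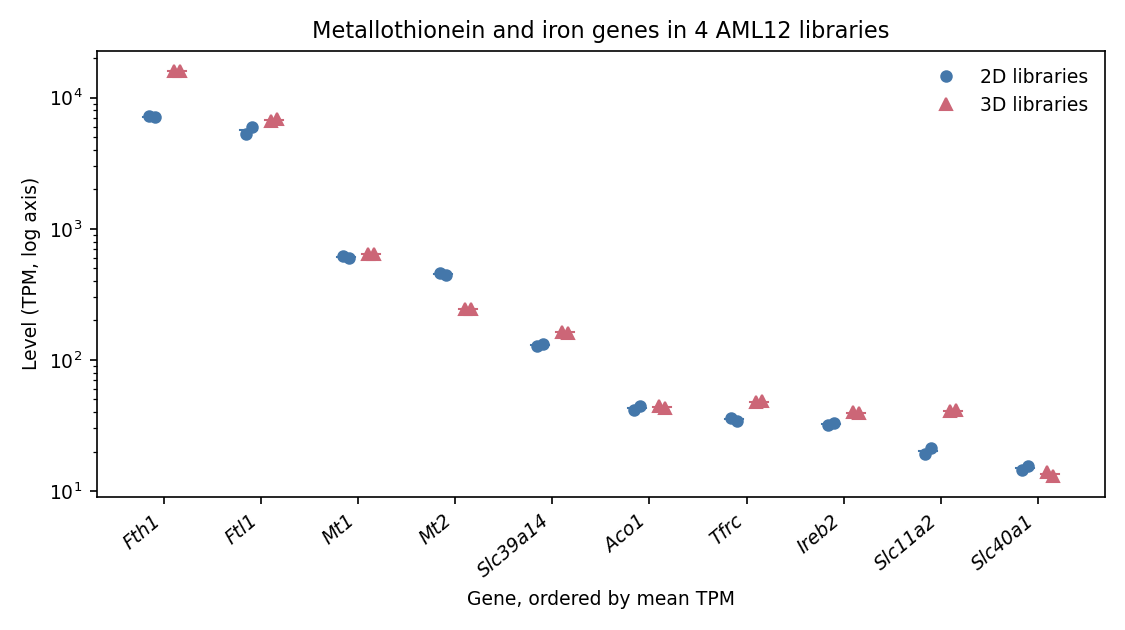
Level of each gene in TPM on a log axis, with 1 circle per 2D library, 1 triangle per 3D library and short bars at the means of 2 libraries. Levels span from 12.9 TPM for Slc40a1 to 15989 TPM for Fth1, and Fth1, Mt2 and Slc11a2 show the widest gaps between the cultures.

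Ferritin heavy chain mRNA more than doubled. Fth1 (ENSMUSG00000024661, chr19:9982703-9985092, plus strand) stood at 7252 and 7095 TPM in the 2D libraries and at 15881 and 15989 TPM in the 3D libraries. Both 3D libraries lay far above both 2D libraries, and libraries of the same culture differed by little. Its mean level was 7174 ± 111 TPM (SD, n = 2) in 2D-cultured cells and 15935 ± 76.3 TPM (SD, n = 2) in 3D-cultured cells, a ratio of 2.22. On the log2 scale the rise was 1.15 with an SE of 0.027 (limma adjusted p = 0.000192). Among all genes of the table Fth1 ranked 6 and 7 by TPM in the 2D libraries and 2 in both 3D libraries.

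The light chain rose far less. Ftl1 (ENSMUSG00000050708, chr7:45457944-45459884, minus strand) was at 5314 and 5974 TPM in the 2D libraries and at 6694 and 6928 TPM in the 3D libraries. The cultures did not overlap, but the gap between the 2D libraries was nearly as wide as the gap between the cultures. Its mean went from 5644 ± 467 to 6811 ± 165 TPM (SD, n = 2 each). The log2 rise was 0.27 with an SE of 0.063 (limma adjusted p = 0.0227). The call was lost without 3D replicate 1 (limma adjusted p = 0.0815) and without 3D replicate 2 (limma adjusted p = 0.117), while the log2 fold changes were 0.30 and 0.25.

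The Ftl1 level also depends on how reads were split. A miRNA gene, Gm22133, lies on the same strand inside exon 4 of Ftl1 (chr7:45458089-45458197, 109 bases, across the end of the coding sequence and into the 3′ UTR). It was listed at 11663 and 11185 TPM in the 2D libraries and at 12204 and 12330 TPM in the 3D libraries, levels that the length scaling raises for so short a gene. When its reads were added to Ftl1 in proportion to length, Ftl1 rose from 6931 ± 429 to 8192 ± 175 TPM (SD, n = 2 each), or 0.24 on the log2 scale with an SE of 0.051 (limma adjusted p = 0.0169). Ftl1 transcripts also share 47.3% of their 50-base stretches with the pseudogene Ftl1-ps1, which was at 12.3 and 12.8 TPM in the 2D libraries and 22.9 and 24.7 TPM in the 3D libraries. Reads of such stretches cannot be assigned with certainty to either gene.

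Together the ferritin mRNAs took a growing share of the transcriptome. Fth1 and Ftl1 summed to 12566 and 13070 TPM in the 2D libraries and to 22575 and 22917 TPM in the 3D libraries. This sum was 1.26% and 1.31% of all TPM in 2D and 2.26% and 2.29% in 3D. On the log2 scale the sum rose by 0.83 with an SE of 0.031 (limma adjusted p = 0.000281). With the Gm22133 reads added by length, it rose by 0.77 with an SE of 0.029 (limma adjusted p = 0.000285). The heavy to light ratio was 1.36 and 1.19 in 2D against 2.37 and 2.31 in 3D, so the mRNA mix shifted towards the heavy chain in both 3D libraries. The ratios use Ftl1 as listed, and would be lower in every library with the Gm22133 reads added to Ftl1. They are given as values of each library and were not tested.

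**Figure D3:**
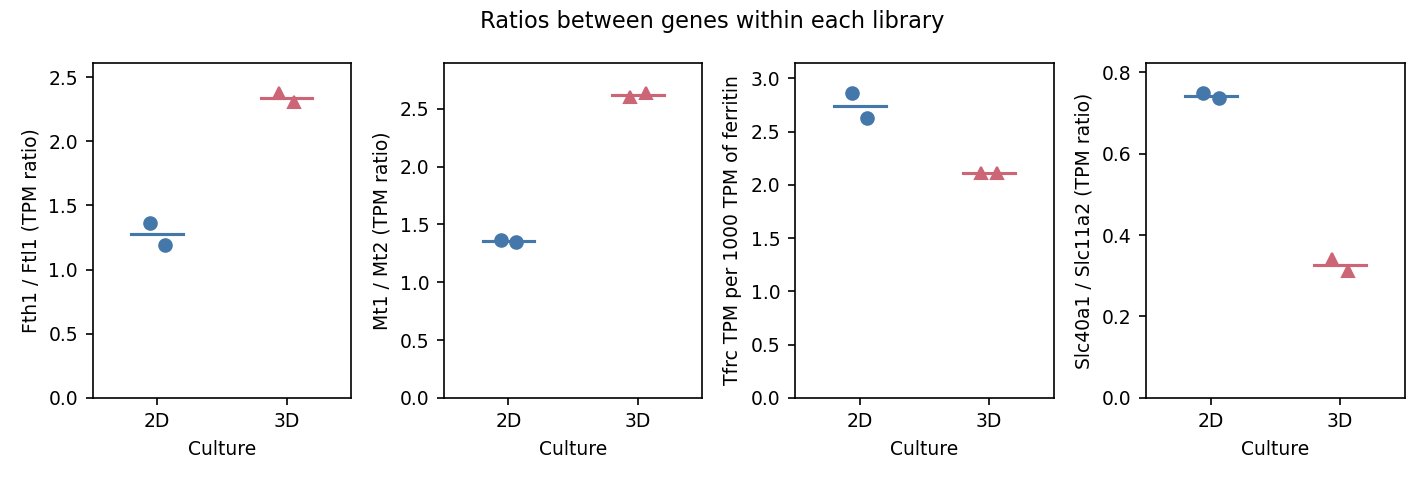
Ratios of TPM between genes within each library, with 1 circle per 2D library, 1 triangle per 3D library and bars at the means of 2 libraries, on axes that start at 0. The heavy to light ferritin ratio and the Mt1 to Mt2 ratio were higher in both 3D libraries, and Tfrc per 1000 TPM of ferritin and the Slc40a1 to Slc11a2 ratio were lower in both.

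The 3 importers all rose, by different amounts. Tfrc (ENSMUSG00000022797, chr16:32608920-32632794, plus strand), whose mRNA carries the 4 elements printed above, was at 35.9 and 34.3 TPM in the 2D libraries and 47.6 and 48.4 TPM in the 3D libraries. The cultures were well apart, at 35.1 ± 1.12 and 48.0 ± 0.586 TPM (SD, n = 2 each), a log2 rise of 0.44 with an SE of 0.054 (limma adjusted p = 0.00352). Set against ferritin, Tfrc was nonetheless lower in 3D: 2.86 and 2.63 TPM per 1000 TPM of ferritin in the 2D libraries and 2.11 in both 3D libraries.

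Slc11a2 (ENSMUSG00000023030, chr15:100387898-100425072, minus strand) doubled. It was at 19.2 and 21.2 TPM in the 2D libraries and at 40.6 and 41.5 TPM in the 3D libraries. Both 3D libraries were at about 2 times the level of the 2D libraries, with means of 20.2 ± 1.40 and 41.1 ± 0.648 TPM (SD, n = 2 each). The log2 rise was 0.99 with an SE of 0.071 (limma adjusted p = 0.000881), and its 95% interval was 0.80 to 1.18.

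Slc39a14 (ENSMUSG00000022094, chr14:70303469-70351425, minus strand) was the most abundant of the importers in both cultures. It was at 128.1 and 131.1 TPM in the 2D libraries and 164.5 and 159.6 TPM in the 3D libraries. Its means of 129.6 ± 2.08 and 162.0 ± 3.49 TPM (SD, n = 2 each) gave a log2 rise of 0.32 with an SE of 0.041 (limma adjusted p = 0.00406). The 3D libraries were both higher than the 2D libraries by more than the spread within either culture.

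The exporter was not called. Slc40a1 (ENSMUSG00000025993, chr1:45908068-45926523, minus strand) had the lowest level of the 10 genes in both cultures, at 14.4 and 15.6 TPM in the 2D libraries and 13.9 and 12.9 TPM in the 3D libraries. Both 3D libraries lay below both 2D libraries, but only just. Its log2 difference was -0.15 with an SE of 0.082 (limma adjusted p = 0.185) and a 95% interval of -0.37 to 0.064. Beside Slc11a2, ferroportin mRNA was at 0.748 and 0.737 of its level in 2D and only 0.342 and 0.311 of it in 3D.

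Of the 2 iron sensors, Ireb2 rose and Aco1 was not called, and the lower of them, Ireb2, came closer to the level of Aco1 in both 3D libraries. Ireb2 (ENSMUSG00000032293, chr9:54863789-54912530, plus strand) was at 31.6 and 32.9 TPM in the 2D libraries and at 39.9 and 39.3 TPM in the 3D libraries. The cultures did not overlap, and the log2 rise was 0.29 with an SE of 0.055 (limma adjusted p = 0.0126). The call was lost without 3D replicate 1 (limma adjusted p = 0.0721) and without 3D replicate 2 (limma adjusted p = 0.0623), with log2 rises of 0.28 and 0.30.

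Aco1 (ENSMUSG00000028405, chr4:40143081-40198338, plus strand) was the one member whose libraries overlapped between cultures. It was at 41.7 and 44.5 TPM in the 2D libraries and 44.5 and 42.8 TPM in the 3D libraries. Its log2 difference of 0.019, with an SE of 0.060 (limma adjusted p = 0.809), had a 95% interval of -0.14 to 0.18 and changed sign when 2D replicate 1 (-0.027) or 3D replicate 1 (-0.0084) was left out. The Ireb2 to Aco1 ratio was 0.758 and 0.740 in 2D against 0.896 and 0.919 in 3D. The difference between the 2 genes' changes was not tested.

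**Figure D4:**
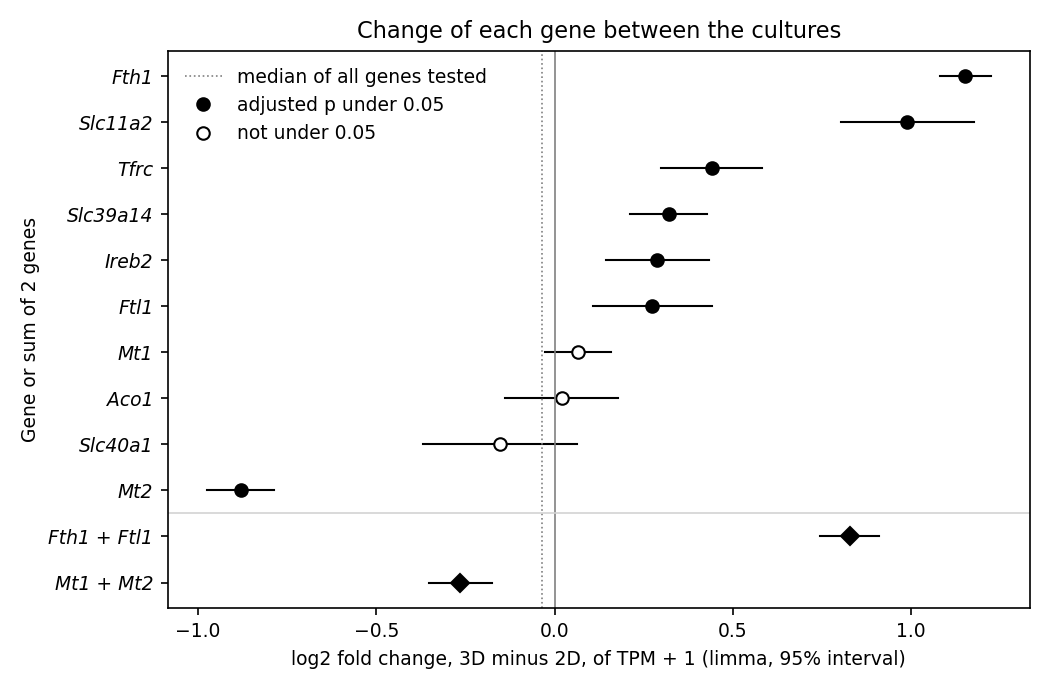
Difference between the cultures (3D minus 2D) in log2(TPM + 1) for each gene, ordered by size, and for the ferritin and metallothionein sums, with limma's 95% intervals. Filled symbols had an adjusted p under 0.05 and the dotted line is the median of all genes tested (-0.036). Fth1 is farthest right at 1.15, Mt2 farthest left at -0.88, and the intervals of Mt1, Aco1 and Slc40a1 cross 0.

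The metallothioneins behaved differently from each other. Mt2 (ENSMUSG00000031762, chr8:94172664-94173568, plus strand) fell from 457.6 and 445.4 TPM in the 2D libraries to 246.0 and 243.5 TPM in the 3D libraries. The replicates of each culture were within a few percent of each other, with means of 451.5 ± 8.69 and 244.8 ± 1.81 TPM (SD, n = 2 each), a ratio of 0.542. On the log2 scale the difference was -0.88 with an SE of 0.036 (limma adjusted p = 0.000317). It was the only member lower in 3D-cultured cells that passed the test.

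Mt1 (ENSMUSG00000031765, chr8:94179082-94180327, plus strand) was at 622.8 and 600.8 TPM in the 2D libraries and at 639.1 and 640.8 TPM in the 3D libraries. The 3D libraries were both slightly higher, but the log2 difference of 0.065, with an SE of 0.035 (limma adjusted p = 0.187), was not called and its 95% interval was -0.028 to 0.16. The Mt1 and Mt2 intervals do not meet. The Mt1 to Mt2 ratio was 1.36 and 1.35 in 2D against 2.60 and 2.63 in 3D. The sum of both went from 1080 and 1046 TPM to 885.2 and 884.3 TPM, a log2 difference of -0.26 with an SE of 0.033 (limma adjusted p = 0.00380). No 50-base stretch was shared between the Mt1 and Mt2 transcripts (0 found), so reads of that length can tell the paralogs apart.

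The genes lie side by side on chromosome 8 in the order Mt4, Mt3, Mt2, Mt1, with 5513 bases between the end of Mt2 and the start of Mt1. Mt3, best known from brain, was listed at 0 in 3 libraries and at 0.232 TPM in 3D replicate 2. Mt4, best known from stratified epithelia, was between 0.159 and 0.312 TPM in the 4 libraries. Both were under the level that was tested. The nearest tested neighbours outside the cluster were Bbs2 (log2 fold change 0.26, limma adjusted p = 0.102) and Nup93 (-0.37, limma adjusted p = 0.00505), taken by position.

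The metal response elements of the 2 promoters are shown because this pair of genes is known to be driven through them. The core TGCACNC or TGCGCNC was searched on both strands from 250 bases before to 50 bases after each RefSeq transcript start (GRCm38.p6). The search found 4 cores in the Mt2 window and 3 in the Mt1 window. Positions count from the RefSeq start, which differs from the gene start given above. All 4 Mt2 cores lie before that gene start (chr8:94172664). Cores beyond the windows would be missed, so the counts do not describe the whole promoters. Of all 32851 windows 25.7% held at least 1 core, 1.97% held at least 3 and 0.517% held at least 4. In the 17-base windows below, written 5′ to 3′ on the strand of the core, capitals mark the core.

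Mt2, position -223, chr8:94172390-94172406, plus strand: gcctcTGCACCCggccc
Mt2, position -128, chr8:94172485-94172501, plus strand: cccttTGCGCTCagctc
Mt2, position -50, chr8:94172563-94172579, minus strand: gagccTGCACACgccct
Mt2, position 5, chr8:94172617-94172633, minus strand: gggccTGCGCACgaccc
Mt1, position -23, chr8:94179061-94179077, plus strand: cgctgTGCACACtggcg
Mt1, position 3, chr8:94179086-94179102, plus strand: agctcTGCACTCcgccc
Mt1, position 21, chr8:94179104-94179120, plus strand: aaaagTGCGCTCggctc

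The antioxidant response core TGACNNNGC was found at 1 place in the Mt2 window, at position -79 (chr8:94172534-94172552, plus strand, gggtgTGACTCAGCgcggg), and at 0 places in the Mt1 window, beside 12.4% of all windows with at least 1. Sequence outside the windows was not searched, so the 0 for Mt1 holds only for its window, which ends at chr8:94179138. RefSeq windows were found for 7 of the 10 genes. Of the other 5 genes with a window, Tfrc held 2 overlapping metal response cores in 1 of its windows and Aco1 held 1.

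By level, the 10 genes kept nearly the same order in both cultures: Fth1, Ftl1, Mt1, Mt2 and Slc39a14 from the top, and Slc40a1 at the bottom. Between them the order was Aco1, Tfrc, Ireb2, Slc11a2 in 2D and Tfrc, Aco1, Slc11a2, Ireb2 in 3D. TPM is scaled for length, so levels can be set beside each other. With Ftl1 as listed, no 2 neighbours in either order overlapped between libraries, though with 2 libraries each this says little of their spread. With the Gm22133 reads added, Ftl1 was at 6627 and 7234 TPM in the 2D libraries. There it overlapped Fth1, at 7252 and 7095 TPM.

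Beyond the 10 genes, the partners of iron uptake and export included 3 genes with log2 rises over 2. Of 10 tested in a list of 18, 5 rose and 1 fell. The share called was 60%, beside 50.5% of all genes (23.4% higher, 27.1% lower), and the same background applies to each list that follows. The number called in this list went down or up when single libraries were left out. The median log2 fold change of 0.49 ranged over the alternatives from 0.11 with no filter to 0.70 with a pseudocount of 0.1, and was 0.26 with a pseudocount of 5. Trf, the serum iron carrier transferrin, went from 19.3 and 18.4 TPM in the 2D libraries to 227.1 and 231.5 TPM in the 3D libraries, or 3.54 on the log2 scale (limma adjusted p = 9.63e-05). Cp, the copper ferroxidase ceruloplasmin that works with ferroportin, rose from 90.2 and 88.7 TPM to 562.3 and 578.6 TPM, and Lcn2, which binds iron-carrying siderophores, from 18.7 and 19.2 TPM to 213.6 and 203.6 TPM. Tfr2, the second transferrin receptor of hepatocytes, was low at 0.536 and 1.01 TPM in the 2D libraries and 1.45 and 1.56 TPM in the 3D libraries, and was not called (limma adjusted p = 0.0728).

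Hepcidin is the liver hormone that removes ferroportin from the cell surface, and its own mRNA was near the floor of the table. Hamp was at 0.485 and 0.406 TPM in the 2D libraries and 0.157 and 0.303 TPM in the 3D libraries, Hamp2 was listed at 0 in 3 libraries and at 0.142 TPM in 3D replicate 2, and the co-receptor Hfe2 was at about 0.03 TPM throughout. Other genes of this axis, both regulators and targets of its signals, were expressed. Of 17 tested, 8 rose, 6 fell and 3 did not pass, so that 82.4% were called beside 50.5% of all genes. The list's median of 0.18 was 0.096 with no filter and turned to -0.022 when a mean of at least 5 TPM was required. Id1, a target of BMP and SMAD signals, rose from 134.3 and 126.7 TPM to 350.9 and 393.4 TPM (2.85 times), and Atoh8, a factor tied to hepcidin transcription, from 2.37 and 1.86 TPM to 19.3 and 19.6 TPM (log2 fold change 2.72). Erfe, which encodes erythroferrone, a secreted suppressor of hepcidin, fell from 73.0 and 77.0 TPM to 27.2 and 27.7 TPM (log2 fold change -1.42, limma adjusted p = 0.000288). Among the most abundant members the co-receptor Neo1 rose (0.65) and Smad4 fell (-0.17). Hfe, which acts with the transferrin receptors, rose from 2.04 and 1.54 TPM to 4.26 and 5.14 TPM (1.03, limma adjusted p = 0.00587). Without 3D replicate 1 the list had 9 calls in place of 14.

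In the list of cytosolic iron delivery and ferritin turnover, 6 of 13 tested genes rose and 1 fell, with a median of 0.12. The 53.8% called was close to the 50.5% of all genes. Pcbp1, a chaperone that loads iron into ferritin, rose slightly from a mean of 599.8 to 671.4 TPM (log2 fold change 0.16, limma adjusted p = 0.0176), while its relative Pcbp2 was at 0.097 (limma adjusted p = 0.139) and Glrx3 at -0.12 (limma adjusted p = 0.0676). Fbxl5, the ligase subunit that marks IRP2 for decay, rose from 74.4 and 73.3 TPM to 113.2 and 106.8 TPM (0.57), Epas1, the hypoxia factor HIF-2α, rose to a low 4.55 TPM in the mean (1.04), and Bola2, a partner of Glrx3, fell (-0.50). Ncoa4, the receptor that carries ferritin to lysosomes, rose from 35.4 and 34.6 TPM to 46.4 and 47.7 TPM (0.42, limma adjusted p = 0.00373). Ncoa4 was chosen after its values were seen. Without 3D replicate 1 the list had 4 calls in place of 7.

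Of 21 heme genes tested 7 rose and 5 fell, 57.1% called beside 50.5% of all genes. Their median of 0.22 was 0.060 without 3D replicate 1, 0.075 without 2D replicate 1, 0.13 without 3D replicate 2 and 0.074 with no filter. Hmox1, the heme oxygenase that frees iron from heme, rose from 278.2 and 265.9 TPM to 395.9 and 401.8 TPM (log2 fold change 0.55, limma adjusted p = 0.000913), and the lysosomal heme transporter Slc48a1 rose from 71.1 and 71.7 TPM to 123.9 and 121.2 TPM (0.77). Pgrmc1, a heme-binding membrane protein, fell from 392.8 and 385.0 TPM to 249.4 and 257.1 TPM (-0.62). The folate and heme carrier Slc46a1 rose (1.38). The plasma scavengers Hpx, which binds heme, and Hp, which binds haemoglobin, rose by 2.93 and 5.43 on the log2 scale from low levels. In the list of iron-sulfur assembly and mitochondrial iron, 7 of 31 tested genes rose, 7 fell and 17 did not pass. The 45.2% called was under the 50.5% of all genes. Their median of -0.0083 lay between -0.065 without 3D replicate 2 and 0.017 after rescaling without mitochondrial and top genes, and without 3D replicate 2 there were 7 calls in place of 14. There the mitochondrial chaperone Hspa9 (0.28) and the iron importer Slc25a37 (0.58) rose, and Nfu1 (-0.73) and Fam96a (-0.47), which hand on iron-sulfur clusters, fell.

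Zinc and copper genes moved in both directions. Of 16 zinc genes tested 5 rose and 4 fell, 56.2% called beside 50.5% of all genes, with 5 calls in place of 9 without 3D replicate 1. Their median of 0.12 was 0.061 without 2D replicate 1, 0.080 without 3D replicate 1, 0.059 without 3D replicate 2 and 0.015 with no filter. The falling side was the less stable one. With no filter, and also with the replicate number as a block, 5 zinc genes rose and 1 fell. The share of all genes called under these 2 settings is not given. The zinc transporters Slc39a7 (0.24), Slc39a4 (0.60) and Slc39a1 (0.26) and the vesicle loader Slc30a4 (0.68) rose, and Slc39a6 fell (-0.50). Mtf1, the factor that reads the metal response elements, was at 12.8 and 15.1 TPM in the 2D libraries and 14.2 and 13.7 TPM in the 3D libraries (limma adjusted p = 0.970), and was chosen after its values were seen. Of 13 genes tested in the copper and manganese list 5 rose and 3 fell, 61.5% called beside 50.5% of all genes. The 13 genes include Mtf2, which is not known to handle either metal and was not called. Their median of 0.028 changed sign without 2D replicate 1 (-0.038), 3D replicate 1 (-0.023) or 3D replicate 2 (-0.015), each of which left 5 calls in place of 8, and was 0.016 without 2D replicate 2. The copper chaperone Atox1 (0.25), the copper exporter Atp7b (0.99) and Sco2 (0.61) rose, Sod1 (-0.31) and its copper chaperone Ccs (-0.44) fell, and Cox17 was at 0.028 (limma adjusted p = 0.649).

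Dexamethasone was in both media, and 11 glucocorticoid-responsive genes were tested beside the metallothioneins, of which 5 rose and 2 fell, 63.6% called beside 50.5% of all genes. Sgk1 (1.28) and Klf9 (0.65) rose along with Lcn2 (3.39, also in the uptake list), and Dusp1 fell (-0.34). Tsc22d3, a much-used marker of this response, was at -0.26 and not called (limma adjusted p = 0.158). Fkbp5, in the same list, rose (0.24, limma adjusted p = 0.00928), and was chosen after its values were seen. Without 3D replicate 1 there were 4 calls in place of 7, and the list's median of 0.20 dropped to 0.022. With no filter it was 0.11. All lists were chosen with earlier results of these data known, and no list was tested as a set.

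**Figure D5:**
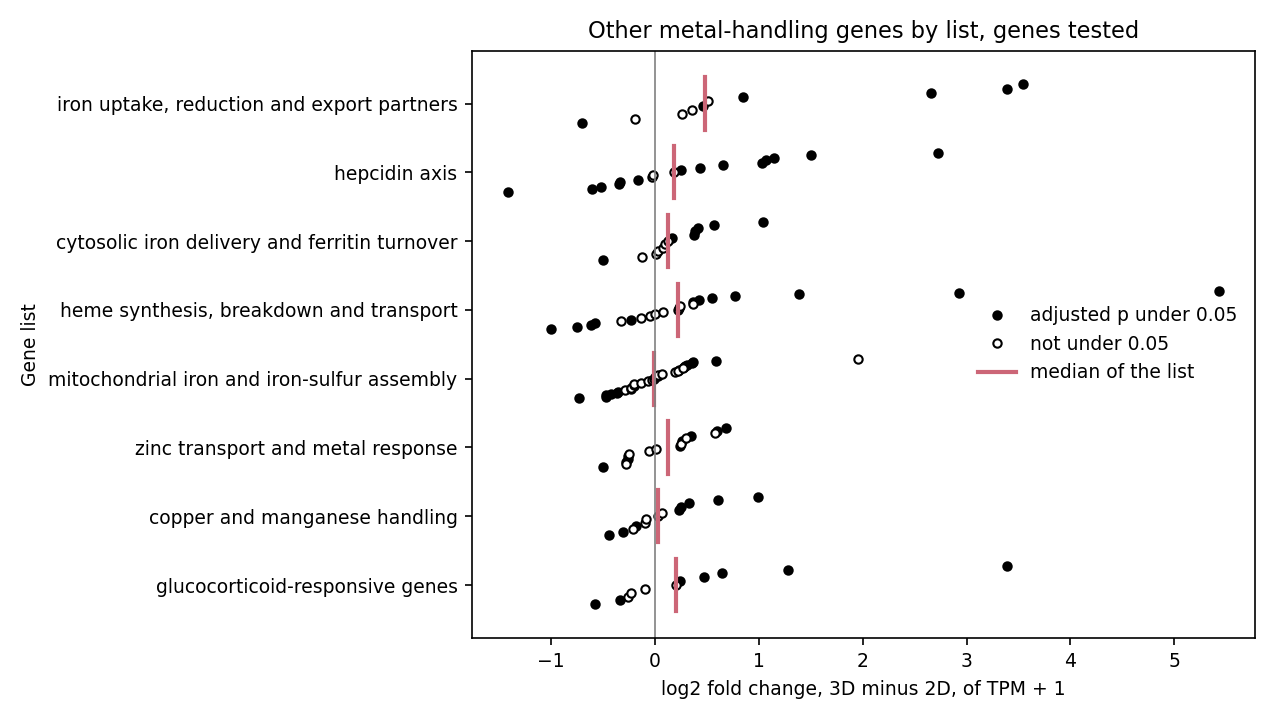
Difference between the cultures (3D minus 2D) in log2(TPM + 1) for each tested gene of 8 lists, filled where the adjusted p was under 0.05, with the median of each list as a red bar. List medians lie between -0.0083 (iron-sulfur assembly and mitochondrial iron) and 0.49 (uptake and export partners). Single genes reach 5.43 (Hp) and -1.42 (Erfe).

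Libraries of a culture were alike (Pearson r across genes of 0.991 in 2D and 0.992 in 3D), and 13891 to 14256 genes per library reached 1 TPM. Mitochondrially encoded genes took 5.37% to 5.44% of TPM in 2D and 6.51% to 6.78% in 3D. Of 14 hepatocyte markers 7 reached a mean of 1 TPM, with a sum of 9430 to 9629 TPM in 2D and 5436 to 5512 TPM in 3D that was mostly Krt8 and Krt18, which both fell. The other 5 all rose: Hnf4a from a mean of 57.1 to 159.7 TPM, Apob from 34.5 to 88.0 TPM, Ttr from 3.55 to 84.5 TPM, Apoa1 from 4.89 to 11.0 TPM, and Alb. Alb was at 0.819 and 1.20 TPM in the 2D libraries and 12.7 and 10.0 TPM in the 3D libraries, and Cyp2e1, Cps1 and Asgr1 stayed under 1 TPM in the mean. Of 8 cholangiocyte markers 6 reached 1 TPM, with a sum of 2359 to 2463 TPM in 2D and 2325 to 2414 TPM in 3D whose members went opposite ways. Krt19 and Krt7 fell to 0.711 and 0.637 of their 2D level, Spp1 rose 5.09 times and Sox9 1.56 times, and Muc1 was not called (limma adjusted p = 0.725). The macrophage genes Ptprc, Csf1r and Adgre1 were under 1 TPM in the mean, and that list summed to 20.5 to 21.1 TPM in 2D and 24.6 to 28.6 TPM in 3D, nearly all Cd68. The stellate cell list summed to 35.0 to 37.7 TPM in 2D and 19.0 to 20.1 TPM in 3D with only Des over 1 TPM, and the endothelial list to 2.10 to 2.75 TPM and 6.97 to 7.28 TPM with only Vwf over 1 TPM. The erythroid list summed to 67.4 to 69.6 TPM in 2D and 40.8 to 42.1 TPM in 3D, nearly all Hba-a1, with Gata1 and Alas2 under 1 TPM. The part of these shifts in the changes of the iron and metallothionein genes was not tested.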

How the data were processed

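Polyadenylated RNA of 4 AML12 libraries was prepared with a stranded kit. After read trimming (cutadapt 1.8.3, then Trimmomatic 0.36) and alignment by HISAT2 2.0.5 against GRCm38, the authors obtained TPM per gene with StringTie 1.3.4; these TPM values were deposited per library. A log2 fold change and a p-value from DESeq2 on counts were also deposited by the authors and were not used. The read counts were not used here, so no count test was run.

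The labels gave the culture of each library. For genes that averaged 1 TPM or more, log2(TPM + 1) was compared by limma 3.58.1 under R 4.3.3 (trend and robust variance, culture as the only factor, two-sided, Benjamini-Hochberg adjustment over 14116 genes). Fold changes on this scale understate those of low genes. Script performance was tested on simulated data, in which far fewer genes were changed than were called here. That test does not measure the error of these calls. A TPM is relative within its library, and genes that rise push the others down. Motifs were searched in GENCODE M21 transcripts and in RefSeq promoter windows with Python 3.11.15, and the pairing rule for iron-responsive elements was added after the sequences were seen.

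The 10 genes and all lists were chosen with earlier results of these data known. From each list, the 3 members with the highest mean TPM and up to 3 called members with the largest absolute log2 fold change were named, with hepcidin-axis and metallothionein relatives given in any case. Some genes that this rule or the marker lists would name are not reported here. Other pseudocounts, filters, scalings, thresholds and variance models, a replicate block and each library left out were tried as alternatives. The labels do not say whether same-numbered libraries of the 2 cultures were paired. Their deviations from the culture means correlated at r = -0.055, which with 2 libraries per culture cannot exclude pairing.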

Additional observations from a re-analysis of the deposited data

How the results depend on the processing

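The direction and call of Fth1, Mt2, Tfrc, Slc11a2, Slc39a14, Mt1 and Slc40a1 were the same under all 13 alternatives run for each. Of the 10 genes, 1 was called when an absolute log2 fold change over 1 was also required and 0 at an absolute log2 fold change over 2, and 5 to 7 when each library was left out in turn. Ftl1 (log2 fold change 0.27) lost its call with a constant prior variance (limma adjusted p = 0.0606). Aco1 was -0.027 without 2D replicate 1 and -0.0084 without 3D replicate 1, with a range of -0.027 to 0.066 over the 4 libraries omitted singly. Quantile normalization gave the smallest value for Fth1, 0.88, and for the ferritin sum, 0.66, and both kept their calls. With 1 library omitted at a time there were 9 to 12 calls for the hepcidin axis, 4 to 7 for cytosolic iron delivery, 7 to 14 for mitochondrial iron, 5 to 8 for zinc, 5 to 6 for copper and manganese and 4 to 9 for glucocorticoid-responsive genes, beside 14, 7, 14, 9, 8 and 7 with all libraries. In these fits the lone library is assumed to vary like the other culture. The share of all genes called in such fits is not given, here or above. A lower count there therefore cannot be read as particular to a list.

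With the replicate number as a block 7 of the 10 genes were called and no member's call changed. Whether these numbers pair the libraries is not known.

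Adding the reads of Gm22133 to Ftl1 was chosen after seeing the data. Unknown depth, 2 libraries per culture and the different hydroxyurea times limit every value, and mRNA levels say nothing of iron content or protein.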
